A study of Oryza sativa with 6 samples.

Results

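Peaks of BG4-DNA-IP-seq around the 12 centromeres of rice were examined. A peak belonged to this set when its summit lay within 1 Mb of the centromere position of its chromosome on MSU v7.0, which gave 12 windows of 2 Mb, 24 Mb in all and 6.43% of the length of the 12 chromosomes. Of 289038 peaks in 4 lists, 24242 had their summit in a window, and the other 264796 formed the rest of the genome. The positions, in Mb, were 16.7 on Chr1, 13.6 on Chr2, 19.4 on Chr3, 9.7 on Chr4, 12.4 on Chr5, 15.3 on Chr6, 12.1 on Chr7, 12.9 on Chr8, 2.8 on Chr9, 8.2 on Chr10, 12 on Chr11 and 11.9 on Chr12. No centromere protein or satellite was measured in the lists, so the windows were defined by position alone and could not be checked against a marker.

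All libraries came from genomic DNA of 2-week-old seedlings of wild-type rice, cultivar Nipponbare. The DNA was purified, fragmented, denatured and refolded in 150 mM KCl before the pulldown, so chromatin was absent and the peaks describe binding in vitro. In the K+PEG group (2 libraries) the buffer for binding of BG4 held 150 mM KCl and 40% PEG, a crowding agent. In the K+PDS group (2 libraries) it held 150 mM KCl and PDS (pyridostatin), a small molecule that binds G4s. The methods of the study name PEG or PDS only in this buffer, after refolding, while the protocol in the sample labels names PEG in the refolding buffer too and no PDS. The 2 input libraries were not analysed here.

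A G4 is a four-stranded structure in which guanines pair into stacked planes, held together by potassium ions, and BG4 is a single-chain antibody that binds it. Rice centromeres carry the histone H3 variant CENH3 on arrays of the CentO satellite, mixed with centromere-specific retrotransposons, and are flanked by heterochromatin rich in retrotransposons and poor in genes. Such repeats are difficult to assemble and to map, so the reference sequence holds only a part of them.

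Peaks in the windows numbered 5677 and 6422 in K+PEG replicates 1 and 2, against 6220 and 5923 in K+PDS replicates 1 and 2. The lists held 73199 and 81992 peaks under K+PEG and 64874 and 68973 under K+PDS. The depths recovered from the lists, with reads extended to 200 bp, were 7904188 and 13334915 reads under K+PEG and 5985000 and 7554100 under K+PDS. Peak names include uniq in the K+PDS lists only. Whether just the K+PDS reads were filtered for unique mapping was not settled, and such a filter cannot be told apart from the condition in any comparison below.

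Peaks were denser in the windows than in the rest in all 4 libraries. K+PEG replicate 1 had 237 peaks per Mb in the windows and 193 in the rest, and K+PEG replicate 2 had 268 and 216. K+PDS replicate 1 had 259 peaks per Mb in the windows and 168 in the rest, and K+PDS replicate 2 had 247 and 181. The windows therefore held 1.22 and 1.24 times the density of the rest under K+PEG, and 1.54 and 1.37 times under K+PDS. The mean log2 ratio was 0.42, with the same sign in 4 of 4 libraries (exact sign-flip test over libraries, two-sided, p = 0.125, the smallest that 4 libraries allow).

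More of the windows also lay under peaks. Peaks covered 12.7% and 14.1% of the windows and 9.06% and 11% of the rest in the K+PEG libraries. In the K+PDS libraries they covered 16.6% and 14.6% of the windows and 8.57% and 8.47% of the rest. The mean log2 ratio of covered bases was 0.65 (4 of 4 libraries, exact sign-flip test, p = 0.125). Long peaks contributed, since peaks of at least 2 kb made up 0.951% and 0.607% of window peaks under K+PEG and 3.26% and 2.43% under K+PDS, against 0.120% and 0.401%, and 1.47% and 0.677%, of the peaks in the rest. The longest window peak measured 8861 bp and lay in K+PDS replicate 2.

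Enrichment at the summit showed no common direction. The fold enrichment is the number of reads at a summit over the local background of the peak caller, with a constant added to both. Its median in the windows exceeded that in the rest by 0.13 in the first K+PEG library and differed by -0.24 in the second, and it exceeded that in the rest by 0.36 and 0.20 in the K+PDS libraries (mean 0.11, exact sign-flip test, p = 0.5). The median length differed by 26 and -3 bp under K+PEG and by 63 and 36 bp under K+PDS (mean 30.5 bp, exact sign-flip test, p = 0.25). K+PEG replicate 2, the deepest library, had the opposite sign in both measures.

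**Figure D1:**
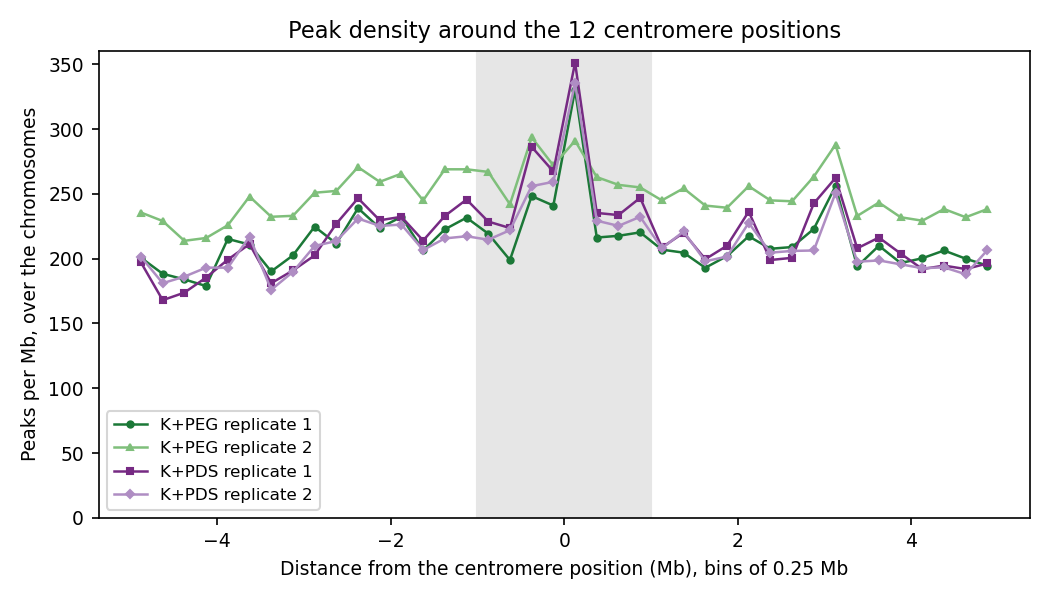
Peaks per Mb (vertical axis) by distance from the centromere position in Mb (horizontal axis), over the 12 chromosomes together, with a line for each of the 4 libraries. In 3 libraries a sharp maximum stands just right of the position (330 peaks per Mb in K+PEG replicate 1, 351 and 335 under K+PDS), and K+PEG replicate 2 (291) has none there.

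Over the chromosomes together, the density rose towards the positions, least so in K+PEG replicate 2. Within 0.1 Mb it reached 315.0 and 302.1 peaks per Mb in the K+PEG libraries, and 335.0 and 313.3 in the K+PDS libraries. At the edge of the windows the density changed little. Peaks with a summit 0.9 to 1.0 Mb away had a density of 210.0 and 243.8 per Mb under K+PEG and 217.5 and 211.7 under K+PDS, and those 1.0 to 1.1 Mb away had 207.9 and 253.8 under K+PEG and 218.8 and 209.6 under K+PDS. The density at the edge was still above the mean of the rest in every library, so the windows are the middle of a broader region. The middle of the windows was also uneven. In the 0.25 Mb right of the position the libraries had 330, 291, 351 and 335 peaks per Mb (K+PEG replicates 1 and 2, then K+PDS replicates 1 and 2), and in the 0.25 Mb left of it 241, 272, 267 and 259. Among these bins of 0.25 Mb in the windows, the densest of K+PEG replicate 2, with 294 peaks per Mb, lay 0.25 to 0.5 Mb to the left. By distance on both sides its density was highest within 0.1 Mb (302.1). Whether this library had a maximum at the position thus depended on the bins. The positions are given to 0.1 Mb, and their error was not tested.

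The share of peaks in the windows was lower under K+PEG than under K+PDS. It was 7.76% and 7.83% in the K+PEG libraries (7.79% ± 0.05, SD, n = 2) and 9.59% and 8.59% in the K+PDS libraries (9.09% ± 0.71, SD, n = 2). The groups did not overlap, and the difference was -1.29 percentage points (exact permutation test over libraries, two-sided, p = 0.333, the smallest that 2 libraries against 2 allow). The difference between conditions in the log2 density ratio was -0.24 (exact permutation test, p = 0.333).

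The number of peaks in the windows themselves did not differ in this way. The windows held 252 ± 21.9 peaks per Mb under K+PEG and 253 ± 8.75 under K+PDS (SD, n = 2 each), with overlapping groups and a difference of -0.92 (exact permutation test, p = 1). In the rest the K+PEG libraries had 205 ± 16.3 and the K+PDS libraries 174 ± 8.90 peaks per Mb, without overlap, a difference of 30.6 (exact permutation test, p = 0.333). Where this difference lay depended on how peaks were counted. The difference inside the windows had no stable sign and was 14.6 without K+PEG replicate 1 and 5.27 without K+PDS replicate 1. After thinning the summit reads to equal depth (mean of 20 draws) the difference was -13.9 in the windows and 21.7 in the rest. With the same number of strongest peaks taken from each library it was -38.25 in the windows and 2.63 in the rest.

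**Figure D2:**
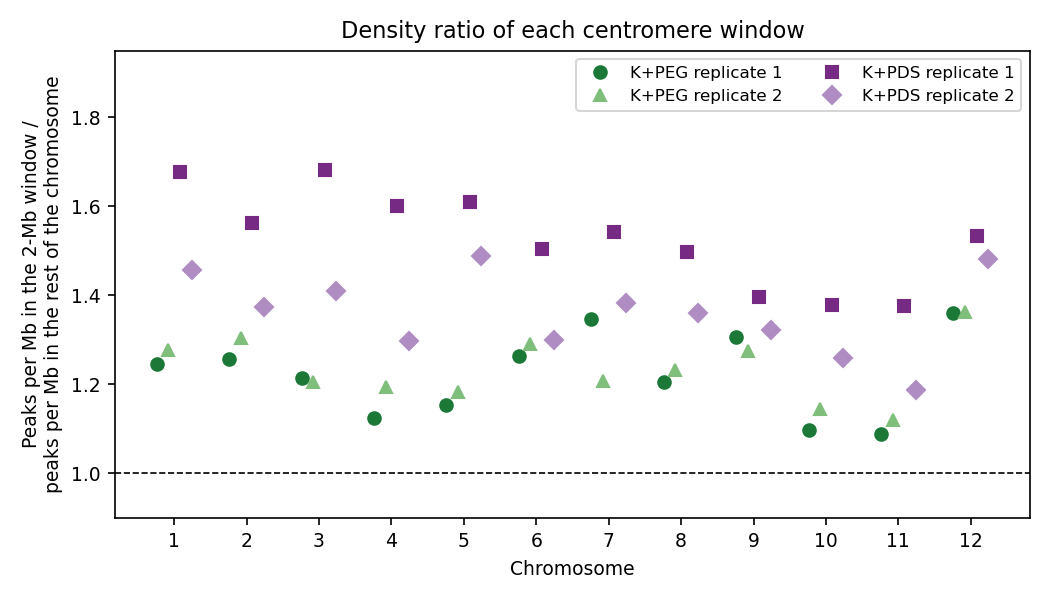
Density of peaks in each centromere window divided by that of the rest of its chromosome (vertical axis, ratio) for the 12 chromosomes, with a point for each of the 4 libraries. All points lie above 1, and in each window both K+PDS points lie above both K+PEG points.

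Each of the 12 windows was denser than the rest of its own chromosome in all 4 libraries. The ratio ranged between 1.09 and 1.36 and between 1.12 and 1.36 in the K+PEG libraries, and between 1.38 and 1.68 and between 1.19 and 1.49 in the K+PDS libraries. Averaged over the libraries, Chr12 stood highest at 1.43 and was followed by Chr1 (1.41), Chr3, Chr2, Chr7, Chr5, Chr6, Chr9, Chr8, Chr4, Chr10 (1.22) and Chr11 (1.19). Neighbours in this order had overlapping ranges over the libraries. The Chr11 window had the fewest peaks in every library, with 399 and 466 under K+PEG and 436 and 407 under K+PDS. The Chr12 window had the most under K+PEG (523 and 595), and the Chr5 window had the most under K+PDS (587 and 564).

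To read the windows against the whole genome, chromosomes were tiled in 2-Mb windows outward from the positions, and the share of each library's peaks, as peaks per 10000, was compared in 175 windows with limma. Of all windows, 8 (4.57%) had a lower share under K+PEG and 5 (2.86%) a higher share at a Benjamini-Hochberg adjusted p of at most 0.05. Of the 12 centromere windows 2 were called, both lower under K+PEG.

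The Chr5 window (Chr5:11400001-13400000) held 63.3 and 65.8 peaks per 10000 in the K+PEG libraries and 90.6 and 81.8 in the K+PDS libraries. Its log2 difference was -0.42 (SE 0.09, limma adjusted p = 0.00347). The Chr4 window (Chr4:8700001-10700000) held 59.2 and 64.1 peaks per 10000 in the K+PEG libraries and 87.5 and 72.9 in the K+PDS libraries. Its log2 difference was -0.37 (SE 0.09, limma adjusted p = 0.00678). In both windows the groups did not overlap. The lower share was not limited to them, since the window left of Chr5 (Chr5:9400001-11400000, called Chr5 step -1) had a log2 difference of -0.39 (limma adjusted p = 0.00678) and the window right of Chr4 (Chr4:10700001-12700000, called Chr4 step 1) had -0.35 (limma adjusted p = 0.00905). With a mean-variance trend in limma the Chr5 window had an adjusted p of 0.0860 and the Chr4 window 0.0338. Without K+PEG replicate 1 limma called 0 of the 175 windows (10 at an unadjusted p under 0.05) and without K+PEG replicate 2 also 0 (27 at that level), while it called 3 without K+PDS replicate 1 and 78 without K+PDS replicate 2.

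In the other 10 centromere windows the log2 difference lay between -0.26 and -0.09, and none was called. Chr8 had -0.26 and Chr10 -0.25 (limma adjusted p = 0.0660 and 0.0687), while Chr2 and Chr9 had -0.09 each. Both K+PEG libraries lay below both K+PDS libraries in 12 of 12 centromere windows, against 52 of all 175 windows (29.7%). The median log2 difference was -0.20 in the centromere windows and 0.03 over all windows. When counts were not divided by the library total, all windows shifted by a median of 0.24 and 7 of the 12 centromere windows had a positive difference.

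**Figure D3:**
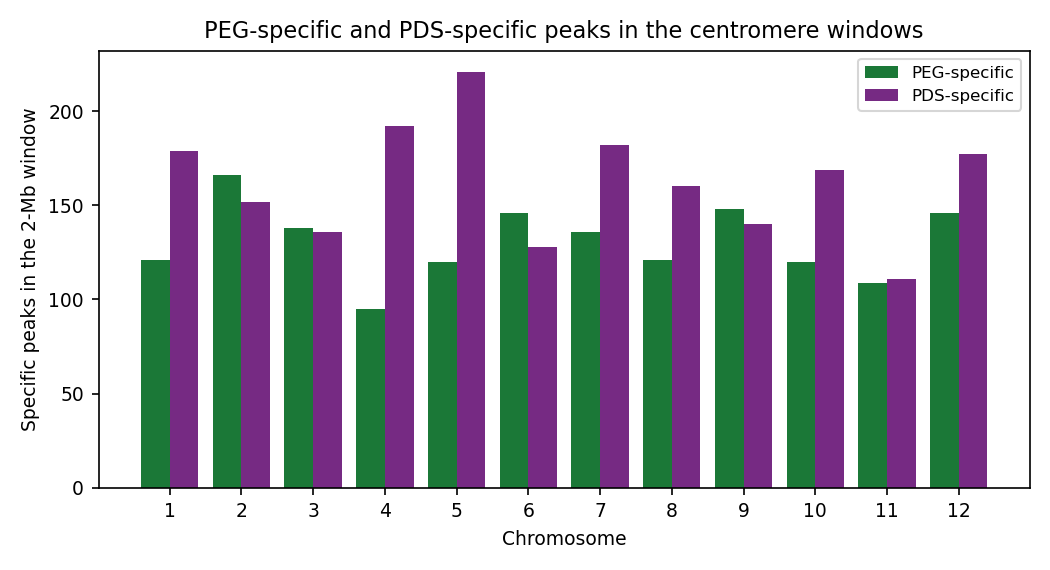
Number of PEG-specific and PDS-specific peaks (vertical axis) in each of the 12 centromere windows. PDS-specific peaks outnumber PEG-specific ones in 8 windows, most on Chr4 (95 PEG-specific, 192 PDS-specific) and Chr5 (120 PEG-specific, 221 PDS-specific).

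Reproducible peaks, the segments shared by both replicates of a condition, were equally frequent in the windows, with 4742 for K+PEG and 4735 for K+PDS (ratio 1.00). In the rest the ratio was 1.38. Specific peaks, which overlap no reproducible peak of the other condition, numbered 1566 for K+PEG and 1947 for K+PDS in the windows (ratio 0.804). In the rest there were 28679 PEG-specific and 14087 PDS-specific peaks, a ratio of 2.04. PEG-specific peaks thus made up 44.6% of specific peaks in the windows (95% exact binomial interval 42.9 to 46.2%) and 67.1% in the rest (66.6 to 67.5%). The intervals cover counting error only, and each set came from all libraries of its condition, so there was no replicate of these ratios.

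Windows held 5.18% of all PEG-specific peaks and 12.1% of all PDS-specific peaks. PEG-specific peaks were 33.0% of the reproducible K+PEG peaks in the windows and 51.5% in the rest, while PDS-specific peaks were 41.1% of the reproducible K+PDS peaks in the windows and 35.0% in the rest. The windows differed among themselves. PEG-specific peaks were more numerous on Chr2, Chr3, Chr6 and Chr9, highest on Chr6 with 146 PEG-specific and 128 PDS-specific peaks (ratio 1.14), and the ratio was lowest on Chr4 (0.495) and Chr5 (0.543). In 12 of 12 windows the ratio was below that of the rest of the same chromosome, which ranged between 1.57 and 2.95. Whether PEG-specific or PDS-specific peaks were more numerous in the windows depended on the threshold, overlap rule and window, with a ratio of 1.14 above a −log10 p of 5, 1.07 with a reciprocal overlap of 50% and 1.03 within 2 Mb. It also depended on the libraries, with 2.14 without K+PEG replicate 1, 1.55 without K+PEG replicate 2, 0.422 without K+PDS replicate 1 and 0.314 without K+PDS replicate 2, where a whole single list stood for the condition.

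**Figure D4:**
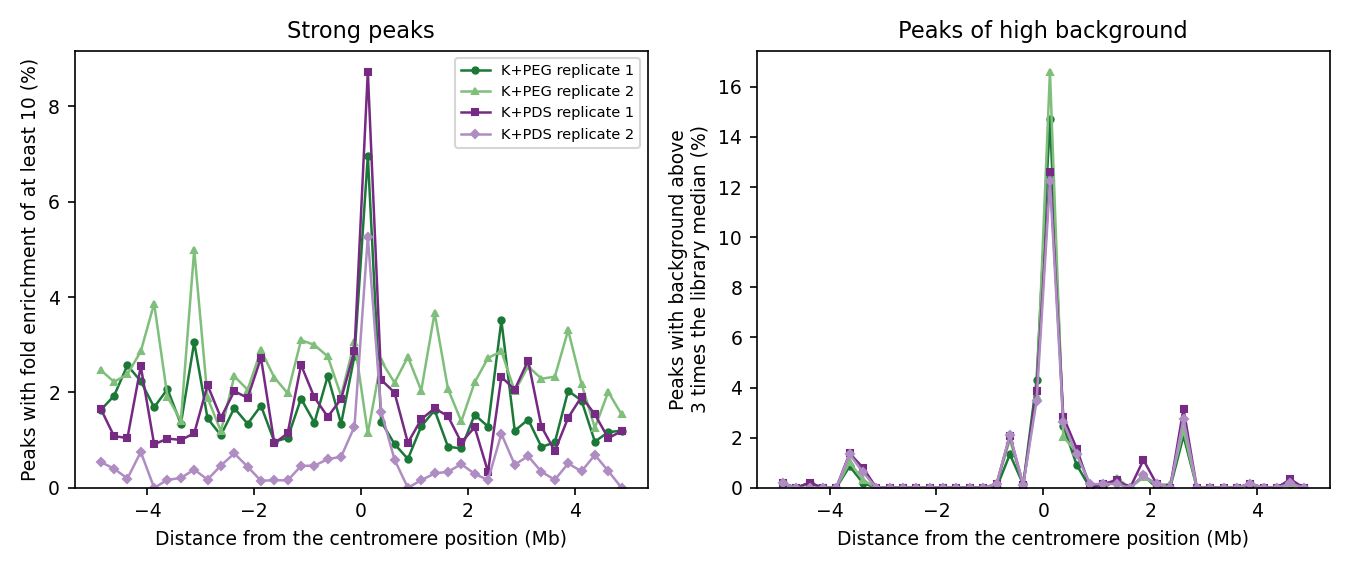
Percent of peaks with a fold enrichment of at least 10 and percent of peaks with a local background above 3 times the library median (vertical axes), by distance from the centromere position in Mb (horizontal axis), with a line for each of the 4 libraries. Within 250 kb of the positions the strong peaks stand out in 3 libraries and not in K+PEG replicate 2 (2.07%), whereas high background stands out in all 4 (8.41 to 10.4%).

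Strong peaks, with a fold enrichment of at least 10, were examined after the data had been seen. In the windows 141 and 155 peaks were strong in the K+PEG libraries, and 191 and 90 in the K+PDS libraries. These were 2.48% and 2.41% of window peaks under K+PEG and 3.07% and 1.52% under K+PDS, against 1.87% and 2.43%, and 1.38% and 0.285%, in the rest. The share was higher in the windows in 3 of 4 libraries (mean difference 0.88 percentage points, exact sign-flip test, p = 0.25). The windows held 10.0% and 7.78% of all strong peaks under K+PEG and 19.0% and 33.3% under K+PDS.

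Most of this excess lay close to the positions. Within 250 kb 5.19% and 2.07% of peaks were strong under K+PEG, and 6.20% and 3.53% under K+PDS. Between 250 kb and 1 Mb the shares were 1.31% and 2.54% under K+PEG and 1.74% and 0.652% under K+PDS. K+PEG replicate 2 was the exception, with fewer strong peaks near the positions than farther out. It still had 281.5 peaks per Mb within 250 kb, against 262.9 between 250 kb and 1 Mb, so peaks were present there at lower enrichment. Its median fold enrichment within 250 kb was 3.12, compared with 4.31 in the other K+PEG library and 4.39 and 3.82 under K+PDS.

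After the 4 lists were merged into 115855 sites, 8724 of them in the windows, 52 sites were strong in every library except K+PEG replicate 2. Of these, 38 (73.1%) were in the windows and 33 within 250 kb of a position, on 11 chromosomes. These sites were picked for the pattern described above, so they show where it lay and are no second view of it. All 38 had a peak in K+PEG replicate 2, where their median fold enrichment was 5.24. The cause of the low enrichment in this library was not tested.

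Peaks of high local background also gathered at the positions. A background above 3 times the library median was found at 208 and 219 window peaks under K+PEG and at 211 and 194 under K+PDS, which were 67.3% and 61.9%, and 54.2% and 58.4%, of all such peaks. They were 3.66% and 3.41% of window peaks under K+PEG and 3.39% and 3.28% under K+PDS, against 0.150% and 0.179%, and 0.303% and 0.219%, in the rest. Within 250 kb they reached 10.3% and 10.4% under K+PEG, and 8.84% and 8.41% under K+PDS. Among window peaks the highest background of every library stood on Chr4 about 507 kb left of the position (Chr4:9193158-9194064 in K+PEG replicate 1). It was 144 and 245 reads under K+PEG and 104 and 138 under K+PDS. Relative to the median background of the library it was alike, at 30.7 and 31.0 times under K+PEG and 30.2 and 31.5 times under K+PDS.

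The mean local background was 1.25 and 1.24 times that of the rest under K+PEG, and 1.23 times in both K+PDS libraries (mean log2 ratio 0.31). The methods of the study name a single replicate of control DNA. The backgrounds of the 4 libraries may therefore come from the same control. They were not taken as independent values, and no p is given. The medians hardly differed, with 4.60 and 7.78 reads in the windows and 4.69 and 7.90 in the rest under K+PEG, and 3.40 and 4.32 in the windows and 3.44 and 4.40 in the rest under K+PDS. The raised mean came from few peaks. With the peaks of high background left out, the share of peaks in the windows was 7.50% and 7.60% under K+PEG and 9.32% and 8.35% under K+PDS, so the order of the conditions was as before. The part of repeats and copy number in this background was not tested.

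Centromeres differed in what stood near the position. Chr9 was the densest within 100 kb in every library, and Chr7 and Chr2 followed in all libraries except K+PEG replicate 2. Chr9 had 530.0 and 385.0 peaks per Mb there under K+PEG and 515.0 and 495.0 under K+PDS. Chr2 had 440.0 and 325.0 peaks per Mb under K+PEG and 415.0 and 385.0 under K+PDS. The density within 100 kb exceeded that of the whole window at 11 and 9 of 12 centromeres under K+PEG, and at 10 in each K+PDS library. On Chr6 it was lower than in the whole window in every library. It was 210.0 and 230.0 there under K+PEG (246.5 and 284.5 in the window), and 190.0 and 220.0 under K+PDS (256.0 and 240.5 in the window). Strong peaks within 250 kb numbered 25 and 7 on Chr9 in the K+PEG libraries, against 21 and 14 in the K+PDS libraries, and 17 and 2 on Chr2 in the K+PEG libraries, against 23 and 14 in the K+PDS libraries. On Chr3 they numbered 1 in each K+PEG library and 0 in each K+PDS library, so strong peaks did not mark every centromere position.

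Sites called in all 4 libraries made up 2541 of the 8724 window sites (29.1%) and 23.3% of the sites in the rest. Their median length was 1050 bp in the windows and 882 bp in the rest. Sites with peaks in both K+PEG libraries and no K+PDS peak were 6.26% of window sites and 10.4% of the others, and sites with peaks in both K+PDS libraries and no K+PEG peak were 5.66% and 3.62%. Sites found in every library except K+PEG replicate 2 were 4.73% of window sites and 1.24% of the others, which was 3.82 times as frequent.

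**Figure D5:**
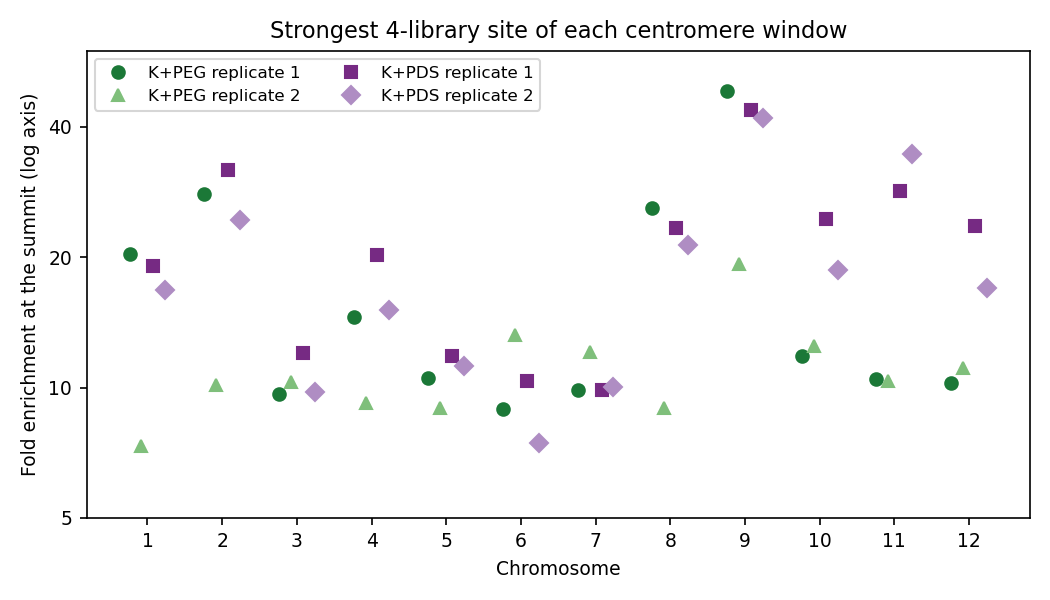
Fold enrichment (vertical axis, log scale) in each of the 4 libraries at the strongest 4-library site of the centromere window of each of the 12 chromosomes (horizontal axis). The Chr9 site is the highest of the 12 in each library, with 48.4 and 19.3 under K+PEG and 43.9 and 42.0 under K+PDS.

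In each window the site with the highest value of its lowest fold enrichment among sites called in all 4 libraries was taken. The highest stood on Chr9, 40.1 kb right of the position (Chr9:2839801-2840475). It had a fold enrichment of 48.4 and 19.3 (249 and 154 summit reads) under K+PEG, against 43.9 and 42.0 (181 and 208 summit reads) under K+PDS. K+PEG replicate 2 was the low library there.

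The same library was lowest at 7 of the 12 sites. On Chr2 (Chr2:13665410-13666299, 65.9 kb right of the position) the fold enrichment was 28.0 and 10.1 under K+PEG and 31.8 and 24.4 under K+PDS. On Chr8 (Chr8:12992667-12996814, 94.7 kb right) it was 26.0 and 8.98 under K+PEG and 23.4 and 21.3 under K+PDS. On Chr1 (Chr1:16777698-16780977, 79.3 kb right) it was 20.4 and 7.33 under K+PEG and 19.0 and 16.8 under K+PDS. At these sites, and on Chr9, K+PEG replicate 1 lay within or above the K+PDS values and K+PEG replicate 2 below them, so the conditions overlapped.

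At 5 of the 12 sites both K+PDS libraries were above both K+PEG libraries, and at 0 sites the reverse held. Over all 27477 sites called in the 4 libraries, 18.4% had both K+PDS libraries above both K+PEG libraries and 38% the reverse. In the windows these shares were 31.1% (790 of 2541 sites) and 21.6% (550 sites), and in the rest 17.1% and 39.7%, so K+PDS was the higher condition more often than K+PEG at window sites and less often at the others. These counts were added after the named sites had been seen and are given without a test. The widest separation was on Chr11 (Chr11:12122245-12123615, 122.9 kb right), where the fold enrichment was 10.5 and 10.4 under K+PEG, with 53 and 82 reads, and 28.4 and 34.6 under K+PDS, with 117 and 171 reads. On Chr10 (Chr10:8220295-8222309, 21.3 kb right) it was 11.8 and 12.5 under K+PEG and 24.6 and 18.7 under K+PDS. On Chr12 (Chr12:12204257-12204917, 304.6 kb right) it was 10.2 and 11.1 under K+PEG and 23.6 and 17 under K+PDS. On Chr4 (Chr4:8802738-8803422, 897 kb left) it was 14.5 and 9.23 under K+PEG and 20.2 and 15.1 under K+PDS, with non-overlapping groups here as well.

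The remaining sites had no value above 13.2. On Chr5 (Chr5:11810057-11811699) the fold enrichment was 10.5 and 8.98 under K+PEG and 11.8 and 11.2 under K+PDS. On Chr3 (Chr3:18843918-18846443) it was 9.65 and 10.3 under K+PEG and 12.05 and 9.79 under K+PDS. On Chr6 (Chr6:16044232-16045145) it was 8.91 and 13.2 under K+PEG and 10.4 and 7.44 under K+PDS. On Chr7 (Chr7:11163887-11164920) it was 9.88 and 12.1 under K+PEG and 9.88 and 10.0 under K+PDS. These 4 sites lay between 555 and 936 kb from their positions, and 5 of the 12 sites lay within 100 kb.

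The strongest site with peaks in both K+PEG libraries and none under K+PDS lay on Chr1 (Chr1:17479059-17479600, 779 kb right), with a fold enrichment of 8.53 and 12.3 and 43 and 98 reads. The strongest with peaks in both K+PDS libraries and none under K+PEG lay on Chr4 (Chr4:9800943-9801321, 101.1 kb right), with 15.0 and 8.49 and 82 and 52 reads. A list holds nothing below its threshold, so the lack of a peak did not show a lack of signal.

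The Chr11 window held a stretch without a peak in any library (Chr11:12353021-12554800), 201780 bp long, 453.9 kb right of the position and 10.1% of the window. The longest such stretch in the other windows was between 15284 and 36097 bp, and the longest outside all windows was 105007 bp, on Chr4. Without the Chr11 stretch the density ratio of this window was 1.21 and 1.25 under K+PEG and 1.53 and 1.32 under K+PDS. With it the ratio was 1.09 and 1.12 under K+PEG and 1.38 and 1.19 under K+PDS. The order of the chromosomes above was not recomputed. Whether the assembly holds sequence there was not analysed here.

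Overlap between replicates differed in direction between the conditions. Of the window peaks, 77.8% and 69.5% overlapped a peak of the other replicate under K+PEG, and 69.5% and 73.8% under K+PDS. In the rest the shares were 80.1% and 69.8% under K+PEG and 63.7% and 60.4% under K+PDS. The windows minus the rest gave -2.33 and -0.38 percentage points under K+PEG and 5.83 and 13.4 under K+PDS, with a mean of 4.13. The values of a condition come from the same pair of lists, so each condition gave a single comparison, an exact test over libraries has no independent values to permute, and no p is given. The mean was 0.085 once peaks had to overlap reciprocally by 50%.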

How the data were processed

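The authors mapped trimmed reads (Trim Galore) with BWA on MSU v7.0, dropped short alignments and duplicates, and ran MACS2 at p = 0.01 on each library. The methods of the study name a single control replicate (Input, IgG or anti-FLAG alone) and do not say which was given to MACS2. The read extension is not given in the sources used here. In the deposited lists the fold enrichment is a linear ratio of reads to local background at the summit, −log10 p and −log10 q refer to the same base, and no score was used. Deposited starts count from 0, and printed starts are 1 bp higher.

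Summit reads and background were solved from fold enrichment and −log10 p under a Poisson distribution, to within 0.05 reads of a whole number. Chromosome lengths were the largest peak end. Fewer reads give fewer peaks, so counts depend on depth. Peak sets used bedtools 2.31.1 (overlap of at least 1 bp). Libraries were compared by two-sided exact tests in Python 3.11.15, and the 175 windows with limma 3.58.1 on log2 of peaks plus 0.5 per 10000. In simulated windows it called 6 of 10 changed 1.2-fold, 10 of 10 changed 1.5-fold and 1 of 145 unchanged.

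The named sites were, per window, the 4-library site with the highest lowest fold enrichment, and the best site of each condition alone. Members, lists and tests were chosen with earlier results of these data known. Alternatives were a −log10 p of at least 5, equal peak numbers, windows of 0.5 and 2 Mb, equal depth, other overlap rules, other limma settings, a replicate block and each library left out. High background left out, the crossed pairing, strong peaks, peaks per Mb between conditions and the counts over all 4-library sites were added after seeing the data. Sequence, genes and repeats were not analysed here.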

Additional observations from a re-analysis of the deposited data

Results flagged for a closer look

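Replicate overlap, windows minus rest, moved in opposite directions in the 2 conditions: it was -2.33 and -0.38 percentage points in the K+PEG libraries, against 5.83 and 13.4 in the K+PDS libraries. Both libraries of each condition had the same sign. The values of a condition come from the same pair of lists, so no valid test of the difference between conditions was possible, and it was not tested. The mean over the libraries was 0.085 once peaks had to overlap reciprocally by 50%, against 4.13 otherwise.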

How the results depend on the processing

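The share of peaks in the windows was lower under K+PEG, and the density ratio above 1, in every alternative run. The ratio of PEG-specific to PDS-specific peaks in the windows (0.804) was 1.14 at a −log10 p of at least 5, 1.03 within 2 Mb, 1.07 with a reciprocal overlap of 50%, 0.561 with equal numbers of peaks, 0.618 within 0.5 Mb and 0.719 at equal depth. Leaving out a library gave 0.314 to 2.14, since 1 whole list then stands for a condition. Divided by the ratio in the rest it lay between 0.311 and 0.593 in 12 of 12 settings.

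The number of 2-Mb windows called by limma (13, of which 2 at centromeres) was 47 (10) at a −log10 p of at least 5, 30 (6) with equal numbers of peaks, 22 (4) at equal depth, 43 (10) with bases under peaks, 44 (0) with no scaling by the library total and 4 (1) with a trend. Leaving out a library gave 0 to 78. Without scaling the log2 difference turned positive on Chr1 (0.0078), Chr2 (0.12), Chr3 (0.011), Chr6 (0.094), Chr9 (0.12), Chr11 (0.034) and Chr12 (0.0076). With the replicate number as a block limma called 0 windows (18 at an unadjusted p under 0.05). The deviations of the 2 replicate 1 libraries were negatively correlated (r = -0.63 over 175 windows), and the cause of this was not tested. A block with the crossed pairing, added after seeing the data, called 63 (9). With 2 libraries per condition the crossed pairs have the opposite correlation, so this count is no independent check.

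Peaks per Mb in the windows (difference -0.92) differed by 22.96 at a −log10 p of at least 5 and 7.98 within 2 Mb, by -38.25 with equal numbers of peaks, by -13.9 at equal depth, and by -16.4 to 14.6 with a library left out, including 5.27 without K+PDS replicate 1. Replicate overlap (4.13) was 0.085 with a reciprocal overlap of 50%. Leaving out a library removed the pair of its condition, so the values were then those of the other condition alone (-1.36 for K+PEG and 9.62 for K+PDS). The difference between conditions in mean background (0.01) was -0.036 at a −log10 p of at least 5 and -0.0072 without high background. Apart from the missing pair in replicate overlap, the cause of these changes was not tested. With 2 libraries per condition and different depths, differences between conditions and libraries cannot be separated further.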
